A study of Mus musculus with 2 samples.

Results

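Solute carriers are membrane proteins that move sugars, amino acids, organic ions, nucleosides, vitamins and inorganic ions across the plasma membrane and the membranes of organelles. Many of them are driven by the sodium gradient that the sodium pump maintains, and others exchange one solute for another or let it run down its own gradient. In liver they take up nutrients, hormones and drugs from the blood, release metabolites such as ketone bodies, and load lysosomes, the endoplasmic reticulum and the Golgi apparatus.

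The genes described here are the rows of the deposited table whose symbol starts with Slc and a number. The mitochondrial carriers (Slc25), fatty acid transport proteins (Slc27) and zinc transporters (Slc30 and Slc39) were left out, and so were Slc2a2, Slc10a1, Slc16a1, Slc37a4 and Slc40a1. This left 103 of 8551 listed genes, of which 99 encode carriers of 36 families, sorted here by family number into 7 substrate classes. The other 4 rows, Slc9a3r1, Slc9a3r2, Slc4a1ap and Slc7a6os, are named after a carrier but encode scaffold, adaptor or other proteins, so the label of a carrier does not hold for them.

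Digital gene expression tags were counted in 1 liver library of male wild type mice and 1 liver library of male db/db (type 2 diabetic) mice, both adult, 9 weeks old and on a C57BL/6 background. The db mutation disrupts the leptin receptor in the whole animal, so changes that start in the liver and changes that follow from obesity and high blood glucose cannot be told apart. Animals of both groups ate chow freely, and livers were frozen about 3 h after the lights came on. The methods name a pair of suppliers but not which group came from which, nor whether RNA of several mice was pooled, and with 1 library per group no difference has a replicate check.

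Levels are given in TPM, which in this assay means tags of the gene per 1000000 clean tags in a library. The assay is meant to yield 1 tag per transcript, so levels of different genes are compared without division by transcript length. A step of 1 read was 0.0973 TPM in the normal and 0.074 TPM in the diabetic library, which gave 10278531 and 13508232 clean tags. Hepatocyte markers were abundant in both libraries (Alb at 6801 and 6912 TPM), although Apob and Hnf4a were lower and Cps1 was higher in the diabetic library, 1 of 7 erythroid markers was analysed, and 0 of 6 markers of the exocrine pancreas were. The summed level of markers was 132 and 115 TPM for the sinusoidal endothelium, 79.2 and 110 TPM for stellate cells, 61.5 and 107 TPM for cholangiocytes and 5.35 and 3.77 TPM for T and B cells. Of the 8 endothelial markers, Clec4g and Ehd3 were called lower, Kdr was called higher, and the others were not called. Most of the cholangiocyte sum was Spp1 (57.2 and 103 TPM), with Epcam at 3.21 and 3.04 TPM and Krt7 at 1.07 and 1.18 TPM. Most of the stellate sum was Dcn (56.9 and 84.4 TPM). Of the other stellate markers, Col1a1 was called higher and Reln lower, and Lrat and Pdgfrb were not called. The median solute carrier had 83 reads in normal and 130 in diabetic liver. No member was at 3 reads or fewer, 4 had fewer than 10 reads in the normal library, and 2 had fewer than 10 in the diabetic library.

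Each member was checked for the tag that this assay could read, which is the DpnII site nearest to the 3′ end of its longest coding transcript with the 16 bases that follow. Such a tag was found in all 103 members in the GENCODE M21 transcripts, and 85 of the tags start in the 3′ untranslated region. The tags of Slc46a2 and Slc22a4 also occur as the last tag of transcripts of other genes, so reads of these genes are uncertain. The tags of the other members were the last tag of no other gene. Other DpnII sites and the rest of the genome were not searched for them. For 62 members, coding transcripts of different ends give more than 1 tag. The following predicted tags belong to members with large differences between the libraries. The DpnII site is in capitals.
Slc16a5: GATCggttcctctaaggtgc
Slc22a3: GATCccaggttaggcacagc
Slc22a5: GATCgcttcctgccttatat
Slc20a1: GATCaaagaaggctgttgac
Slc19a1: GATCgtcaagacctgatggc
Slc47a1: GATCttgaaaaaaaagacga
Slc16a6: GATCactgctctgttctgta
Slc11a1: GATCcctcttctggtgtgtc
Slc6a6: GATCcttggtgtgtgacctg
The deposited table gives genes and no tag sequences, so these are the tags expected from the annotation and not tags that were read. The labels state that the cDNA was primed with random hexamers, and whether tags of other DpnII sites were counted was not tested. The tags of Slc22a5, Slc20a1 and Slc47a1 start before the 3′ untranslated region, between 902 and 1483 bases from the end of the transcript, and that of Slc16a5 starts 306 bases from the end.

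A gene was called differentially expressed with a fold change of at least 1.5 and a false discovery rate (FDR) under 0.001 by an exact binomial test of the reads (two-sided), and such a test compares 2 libraries rather than the conditions. Of the 103 members, 23 were higher in diabetic liver and 6 were lower. That is 22.3% higher and 5.83% lower, beside 22.9% and 8.19% of all listed genes. The median log2 ratio of the members, diabetic over normal, was 0.24, and that of all listed genes was 0.25. Both shares and the median of the solute carriers were close to those of all listed genes. By the fold change alone 36 members were higher and 15 lower, beside 34.4% and 15.3% of all listed genes. With a fold change of at least 2 these counts were 16 and 5, beside 14.5% and 4.53%. Animals vary, and when a variation between samples of 20% was added to the counting error, 5 members were higher and 0 lower, beside 2.21% and 0.819% of all listed genes. At 40% there were 1 higher (Slc16a5) and 0 lower, beside 0.246% and 0.152%. Both libraries are scaled to clean tags, and 4 other scalings between them lowered every log2 ratio by 0.25 to 0.27. Under TMM scaling 14 members were higher and 15 lower, where 14.9% and 13.4% of all listed genes were called. Class medians under about 0.25 therefore turned negative with these scalings.

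**Figure D1:**
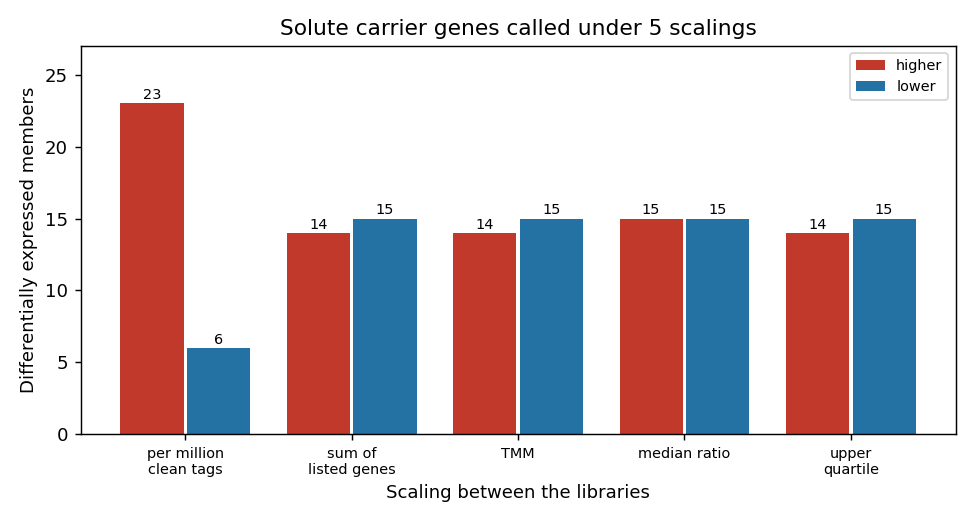
Number of solute carrier genes called higher (red) or lower (blue) in the diabetic library, on the y axis, under 5 scalings between the libraries. With the deposited values 23 were higher and 6 lower, and under the other scalings 14 or 15 were higher and 15 lower.

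Because the 4 scalings lowered every ratio, they could take away calls of higher but hardly any of lower. All 6 members called lower stayed lower, as did all 700 listed genes called lower, so this is no check on those calls. Of the 1955 listed genes called higher, 1271 stayed higher under TMM scaling. Of the 23 members called higher, 14 stayed higher under each of the 4. These 14 were Slc16a5, Slc22a3, Slc22a5, Slc20a1, Slc19a1, Slc7a6os, Slc47a1, Slc5a6, Slc46a3, Slc4a4, Slc7a2, Slc16a7, Slc9a3r1 and Slc22a18. Slc35b2 stayed higher under median-ratio scaling only, and Slc6a13, Slc6a9, Slc38a7, Slc15a5, Slc31a2, Slc44a3 and Slc23a2 were among those called under none of the 4. In the other direction, members such as Slc3a1, Slc36a1, Slc12a4, Slc4a2, Slc10a3, Slc17a9, Slc45a3 and Slc19a2 were called lower under each of the 4 scalings but not with the deposited values.

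**Figure D2:**
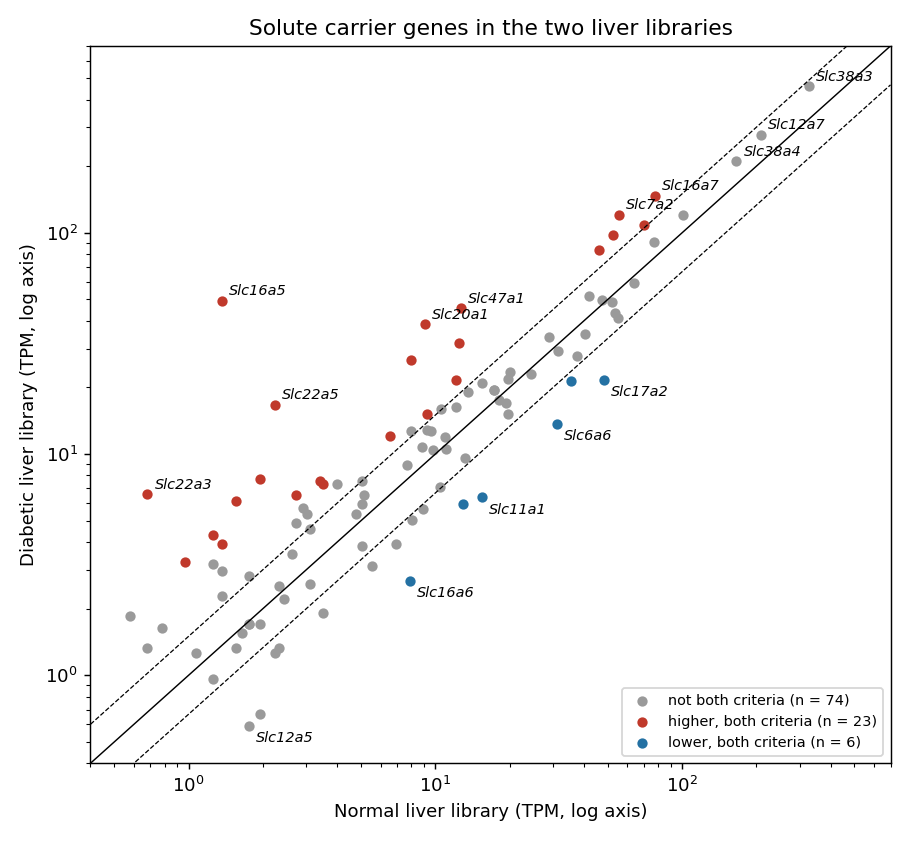
Level of the 103 solute carrier genes in the normal (x axis) and diabetic (y axis) liver library in TPM, both on log axes, with lines of equal level (solid) and 1.5-fold difference (dashed). Slc16a5, at 1.36 and 49.5 TPM, lies farthest from the line of equal level, while the most abundant member, Slc38a3, lies within 1.5-fold.

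Of all TPM on listed genes, the members held 0.618% in normal and 0.671% in diabetic liver. The 5 most abundant, Slc38a3, Slc12a7, Slc38a4, Slc16a7 and Slc33a1, held 38.3% and 40.9% of the members' TPM. Of the 12 members with a mean of 50 to 1000 TPM, 5 were higher and 0 lower, beside 39.8% and 11.5% of all listed genes at that level. Of 38 members with a mean of 10 to 50 TPM, 7 were higher and 4 lower, beside 32.0% and 11.4%. Of 28 members at 3 to 10 TPM, 8 were higher and 2 lower, beside 18.2% and 7.25%. Of the 25 members with a mean of 1 to 3 TPM, 3 were higher and 0 lower, beside 8.47% and 3.71%. The share called thus depended on the level among all listed genes too. The 29 called members had a median level of 12.2 TPM. The 22 members that differed at least 1.5-fold without passing the FDR had a median level of 2.49 TPM, where the reads are few. Of the 74 members not called, 23 had a 95% interval of the ratio wholly within 1.5-fold, and for the others this depth does not show whether they differed by that much.

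**Figure D3:**
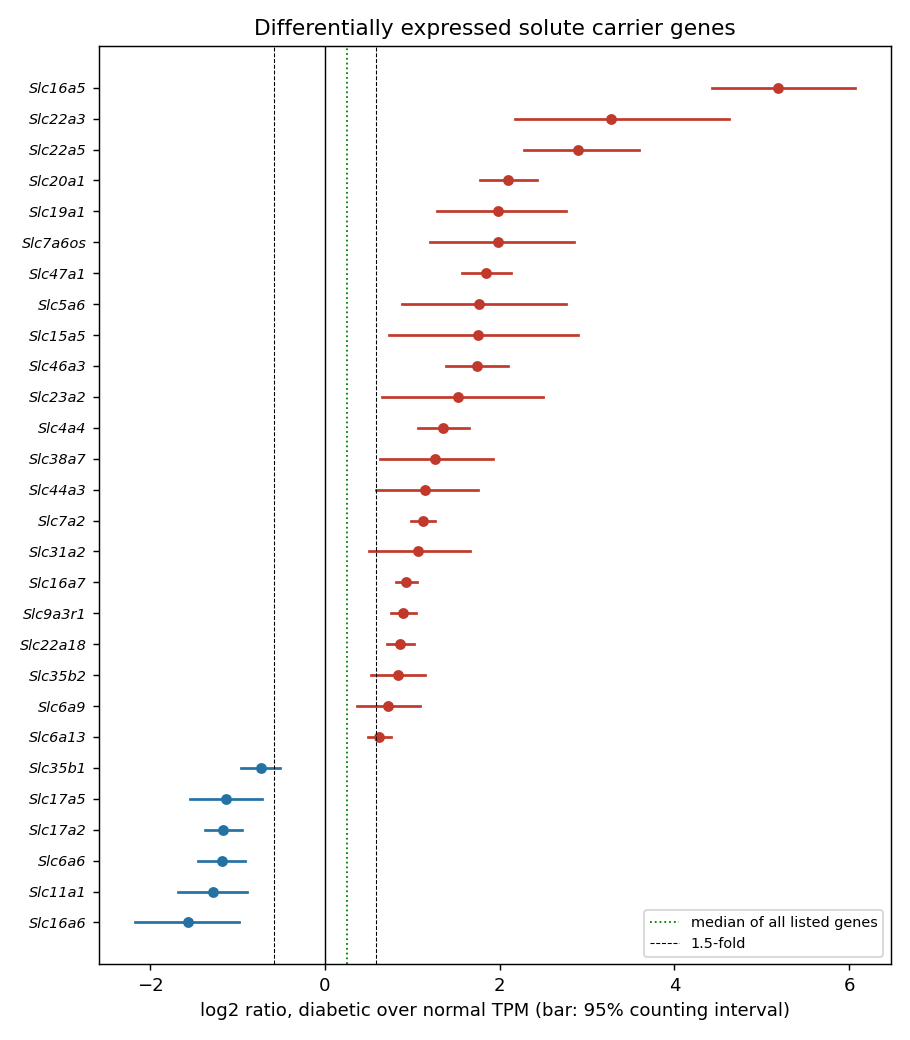
Log2 ratio of diabetic over normal TPM (x axis) for 28 of the 29 called members, with 95% Clopper-Pearson intervals from the reads as bars, the median of all listed genes (dotted) and 1.5-fold (dashed). The ratios run from -1.56 for Slc16a6 to 5.18 for Slc16a5.

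Amino acid and peptide carriers formed a class of 21 members, of which 5 were higher and 1 lower. These counts, and those of the classes and families below, stand beside 22.9% and 8.19% of all listed genes. The median log2 ratio of the class was 0.35, and that of all listed genes was 0.25. Differences between the classes and all listed genes were not tested. The most abundant member of all was in this class. Slc38a3 (Entrez 76257), a sodium-coupled glutamine carrier of hepatocytes, had 3348 reads (326 TPM) in normal liver and 6215 reads (460.1 TPM) in diabetic liver. The log2 ratio of 0.50 (95% interval, 0.44 to 0.56) lay just under 1.5-fold. Slc38a4, which carries neutral and cationic amino acids, was at 166 and 211 TPM, a log2 ratio of 0.35. Slc38a2, an amino acid carrier induced by amino acid shortage, was at 53.4 and 43.4 TPM, a log2 ratio of -0.30 (95% interval, -0.47 to -0.13). The fourth listed Slc38 gene, Slc38a7, a glutamine carrier of lysosomes, was called higher from 28 to 88 reads, a 2.39-fold difference.

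Among the carriers of cationic amino acids, Slc7a2 (Entrez 11988), which takes up arginine and lysine, was higher by 2.18-fold. It had 571 reads (55.5 TPM) in normal liver and 1634 reads (121 TPM) in diabetic liver, a log2 ratio of 1.12 (95% interval, 0.98 to 1.26). Slc7a7, the light chain of a carrier that exchanges cationic for neutral amino acids, had only 8 and 22 reads and was not called. Slc7a8, a light chain for large neutral amino acids, had 16 and 18 reads.

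The Slc6 genes went in both directions. Slc6a6 (Entrez 21366), the taurine transporter, was lower, with 319 reads (31.0 TPM) in normal liver and 185 reads (13.7 TPM) in diabetic liver. Its log2 ratio was -1.18 (95% interval, -1.45 to -0.91), 2.27-fold lower. Slc6a13, which carries GABA and also taurine, was higher at 70.3 and 108 TPM, a log2 ratio of 0.62 (95% interval, 0.49 to 0.75), and was the called member nearest to 1.5-fold. The glycine transporter Slc6a9 was higher at 9.24 and 15.2 TPM, 1.65-fold. Slc6a12, a betaine and GABA carrier, had 25 and 30 reads, a log2 ratio of -0.13 with an interval of -0.95 to 0.70.

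The glutamate transporter Slc1a2, at 10.5 and 15.9 TPM, differed 1.52-fold and missed the FDR threshold by the exact test (FDR = 0.001). Slc1a4 and Slc1a5, which exchange alanine, serine, cysteine and glutamine, had between 17 and 35 reads and intervals on both sides of 0. Slc15a5, a peptide carrier family member without a known substrate, was called higher from 10 to 44 reads, a log2 ratio of 1.75 (95% interval, 0.73 to 2.90). The lysosomal histidine and peptide carrier Slc15a4 was at 12.2 and 16.3 TPM, and its relative Slc15a3 at 3.50 and 1.92 TPM, both without a call. Slc43a1, a carrier of branched-chain amino acids, had 41 and 99 reads, and Slc43a3, a purine base carrier by function, had 178 and 264. Slc3a1, the heavy chain of the cystine carrier, was at 10.4 and 7.11 TPM, and Slc36a1, an amino acid carrier of lysosomes, was at 37.5 and 27.8 TPM. Their log2 ratios were -0.55 and -0.43.

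**Figure D4:**
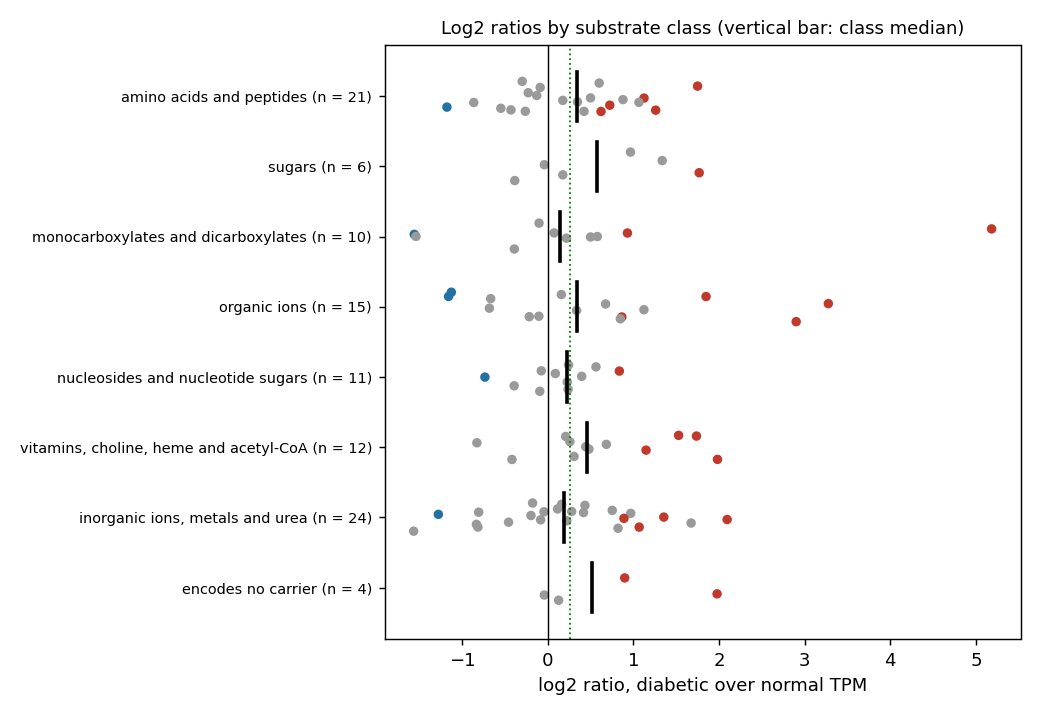
Log2 ratio of diabetic over normal TPM (x axis) of each member by substrate class (y axis), with called members in red (higher) or blue (lower), class medians as vertical bars and the median of all listed genes as a dotted line. Class medians lie between 0.14 for monocarboxylates and dicarboxylates and 0.57 for the sugar families.

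Of 10 members of the monocarboxylate and dicarboxylate carrier families, 2 were higher and 1 lower, beside 22.9% and 8.19% of all listed genes. Several of the 10 carry other substrates. The largest difference of any member was among them. Slc16a5 (Entrez 217316), a monocarboxylate transporter family member that carries drugs such as bumetanide, had 14 reads (1.36 TPM) in normal liver and 668 reads (49.5 TPM) in diabetic liver. The difference was 36.4-fold (log2 ratio 5.18, 95% interval 4.43 to 6.06). Slc16a7 (Entrez 20503), a high-affinity carrier of pyruvate, lactate and ketone bodies, was higher at 77.4 and 147 TPM, with 796 and 1992 reads. Its log2 ratio was 0.93 (95% interval, 0.81 to 1.05).

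Slc16a6 (Entrez 104681), linked to the release of ketone bodies from hepatocytes, had the lowest ratio of the called members. It had 81 reads (7.88 TPM) in normal liver and 36 reads (2.67 TPM) in diabetic liver, a log2 ratio of -1.56 (95% interval, -2.17 to -0.98). Slc16a9, linked to the export of carnitine, had 20 and 9 reads, a log2 ratio of -1.54 that was not called. Slc16a11, linked to pyruvate transport and to the risk of type 2 diabetes in humans, was at 47.4 and 49.8 TPM, a log2 ratio of 0.07 (95% interval, -0.10 to 0.24). Slc16a10, which carries aromatic amino acids and thyroid hormone, was at 139 and 258 reads, and the creatine carrier Slc16a12 was at 5.06 and 7.55 TPM, both without a call. The sodium-coupled dicarboxylate carriers Slc13a3 and Slc13a2 were at 29.0 and 33.7 TPM and at 1.26 and 0.96 TPM in normal and diabetic liver.

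Among 15 carriers of organic ions, 4 were higher and 2 lower, beside 22.9% and 8.19% of all listed genes. Their median log2 ratio was 0.34, and that of all listed genes was 0.25. The Slc22 family, which carries organic cations, anions and carnitine, had 3 of 6 members higher and 0 lower, beside the same shares. Slc22a5 (Entrez 20520), the sodium-coupled carnitine transporter, had 23 reads (2.24 TPM) in normal liver and 226 reads (16.7 TPM) in diabetic liver. This was a 7.47-fold difference (log2 ratio 2.90, 95% interval 2.28 to 3.59). Slc22a3 (Entrez 20519), an organic cation and monoamine transporter, had 7 and 89 reads, a log2 ratio of 3.28 (95% interval, 2.17 to 4.63). Slc22a18, an orphan carrier encoded in an imprinted region, was higher at 45.9 and 83.6 TPM. Slc22a4, a carrier of ergothioneine whose tag is shared with other genes, had 28 and 66 reads, and the orphan Slc22a23 was at 40.4 and 34.7 TPM.

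Slc47a1 (Entrez 67473), a proton exchanger that extrudes organic cations into bile and urine, had 130 reads (12.7 TPM) in normal liver and 615 reads (45.5 TPM) in diabetic liver. Its difference was 3.60-fold (log2 ratio 1.85, 95% interval 1.57 to 2.13). In the Slc17 family, 0 of 6 members were higher and 2 lower, beside 22.9% and 8.19% of all listed genes. Slc17a2 (Entrez 218103), of the phosphate and organic anion carriers, was at 48.4 TPM in normal liver and 21.6 TPM in diabetic liver. Its log2 ratio was -1.16 (95% interval, -1.38 to -0.95). Slc17a5, which releases sialic acid from lysosomes, was lower from 133 to 80 reads, a log2 ratio of -1.13. The relatives Slc17a1 and Slc17a4 had log2 ratios of 0.16 and 0.34, which were -0.10 and 0.08 under TMM scaling, and were not called. The vesicular carriers Slc17a8 for glutamate, Slc17a9 for nucleotides and Slc18a1 for monoamines were not called either, with log2 ratios of 0.67, -0.67 and 1.12. Slc10a3, an orphan of the bile acid carrier family, was at 8.08 and 5.03 TPM.

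Of the 6 members of sugar carrier families, 1 was higher and 0 lower, beside 22.9% and 8.19% of all listed genes. That member, Slc5a6 (Entrez 330064), belongs to the sodium and glucose cotransporter family but carries biotin, pantothenate and lipoate. It had 13 and 58 reads, a log2 ratio of 1.77 (95% interval, 0.88 to 2.76). Slc2a1, the widely expressed glucose transporter, had 30 reads in normal and 77 in diabetic liver. With a log2 ratio of 0.96 (95% interval, 0.34 to 1.63) it missed the FDR threshold by the exact test (FDR = 0.0039). Slc2a9, which carries urate, had 13 and 43 reads, and Slc2a8, an intracellular hexose transporter, was at 17.3 and 19.5 TPM, both without a call. Slc37a3 had 18 and 23 reads. Slc45a3 was at 19.8 and 15.1 TPM, a log2 ratio of -0.39.

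Carriers of vitamins, choline, heme and acetyl-CoA had 4 of 12 members higher and 0 lower, beside 22.9% and 8.19% of all listed genes. Their median log2 ratio was 0.46, and that of all listed genes was 0.25. The vitamin families with a pair of listed members, Slc19 and Slc23, each had 1 that was higher with the deposited values. Under the 4 other scalings Slc23a2 was not called and Slc19a2 was called lower. Slc19a1 (Entrez 20509), the reduced folate carrier, had 20 reads in normal and 104 in diabetic liver, a 3.95-fold difference (log2 ratio 1.98, 95% interval 1.28 to 2.75). Its relative Slc19a2, a thiamine transporter, was at 54.9 and 41.0 TPM, a log2 ratio of -0.42 (95% interval, -0.59 to -0.25) that lay within 1.5-fold. Of the vitamin C transporters, Slc23a2 was higher from 14 to 53 reads, while the more abundant Slc23a1 was at 41.9 and 51.8 TPM, 1.24-fold.

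Slc46a3 (Entrez 71706), a carrier of the lysosomal membrane, was higher at 7.98 and 26.6 TPM, with 82 and 359 reads and a log2 ratio of 1.74 (95% interval, 1.39 to 2.10). The proton-coupled folate transporter Slc46a1 had 159 and 284 reads and was not called. Slc44a3, of the choline carrier family, was higher from 35 to 102 reads, whereas Slc44a1 and Slc44a2 had 79 and 120 reads and 23 and 17 reads in normal and diabetic liver. Slc33a1, which brings acetyl-CoA into the endoplasmic reticulum, was abundant at 101 and 120.3 TPM, a log2 ratio of 0.26 (95% interval, 0.14 to 0.37). The heme carrier Slc48a1 was at 9.24 and 12.9 TPM. Slc46a2, whose tag is shared with other genes, had 18 and 38 reads.

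Among 11 nucleoside and nucleotide sugar carriers, 1 was higher and 1 lower, both of the Slc35b group. These counts stand beside 22.9% and 8.19% of all listed genes. The median log2 ratio of the class was 0.23, and that of all listed genes was 0.25. Slc35b1 (Entrez 110172), which supplies ATP to the endoplasmic reticulum, was lower at 35.5 and 21.3 TPM, with 365 and 288 reads. Its log2 ratio was -0.74 (95% interval, -0.96 to -0.51). Slc35b2, which brings the sulfate donor PAPS into the Golgi apparatus, was higher at 12.2 and 21.7 TPM, a log2 ratio of 0.83 (95% interval, 0.53 to 1.15). The equilibrative nucleoside transporter Slc29a1, the most abundant of the class at 76.7 and 90.6 TPM, had a log2 ratio of 0.24 that became -0.01 under TMM scaling. Slc35d2, a carrier of nucleotide sugars, was at 52.0 and 48.6 TPM. The other 7, Slc35a2, Slc35a5, Slc35b3, Slc35b4, Slc35c1, Slc35c2 and Slc35f5, had between 11 and 171 reads and were not called.

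Carriers of inorganic ions and metals were the largest class, with 24 members. Of these, 4 were higher and 1 lower, beside 22.9% and 8.19% of all listed genes. Slc20a1 (Entrez 20515), a sodium-coupled phosphate transporter, had 93 reads (9.05 TPM) in normal liver and 522 reads (38.6 TPM) in diabetic liver. It was higher by 4.27-fold (log2 ratio 2.09, 95% interval 1.77 to 2.43). Slc4a4 (Entrez 54403), the sodium bicarbonate cotransporter, was higher at 12.4 and 31.8 TPM, a log2 ratio of 1.35 (95% interval, 1.07 to 1.65). The anion exchanger Slc4a2, at 13.2 and 9.62 TPM, and the bicarbonate transporter Slc4a7, with 27 and 48 reads, were not called. Slc9a8, a sodium and proton exchanger, had 91 and 145 reads and was not called.

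Slc11a1 (Entrez 18173), a metal transporter of macrophage phagosomes, was lower, with 159 reads (15.5 TPM) in normal liver and 86 reads (6.37 TPM) in diabetic liver. Its log2 ratio was -1.28 (95% interval, -1.68 to -0.89). Of 9 macrophage markers that had a value, from a list of 12, C1qa, C1qc, Csf1r and Emr1 were lower and C1qb was higher. Their summed level was 331 TPM in normal liver and 196 TPM in diabetic liver, with Cd5l at 64.7 and 62.9 TPM and the Kupffer cell lectin Clec4f at 15 reads in each. Marco, Timd4 and Vsig4 were not analysed here, and no marker with a value was at 0. The part of these cells in the result was not tested, and in a whole liver fewer macrophages and less RNA per macrophage cannot be told apart. Slc11a2, the divalent metal transporter of most cells, had 14 and 31 reads and was not called.

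The copper carriers are a pair, of which Slc31a2 was higher from 36 to 99 reads and the high-affinity importer Slc31a1 was at 20.1 and 23.5 TPM without a call. Of the cation and chloride cotransporters (Slc12), 0 of 6 were called in either direction, beside 31% of all listed genes. Slc12a7, a potassium and chloride cotransporter, was the second most abundant member at 208 and 278 TPM. Its log2 ratio of 0.42 (95% interval, 0.34 to 0.49) lay within 1.5-fold. Its relative Slc12a4 had 71 and 53 reads, a log2 ratio of -0.82. Slc12a5, known from neurons, had 18 and 8 reads, the lowest ratio of any member (log2 ratio -1.57, 95% interval -2.97 to -0.29), and was not called. Slc12a8 and Slc12a9 had between 20 and 72 reads.

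The sulfate and anion carriers Slc26a2 and Slc26a11 were at 18.2 and 17.6 TPM and at 19.4 and 17.1 TPM, and Slc26a1 had 7 and 18 reads. Slc24a6, a sodium and calcium exchanger of mitochondria, was at 24.4 and 23.0 TPM, and its relative Slc24a5 had 24 and 18 reads. The magnesium carriers Slc41a1 and Slc41a3 had 24 and 34 reads and 6 and 25 reads. None of these 7 members passed both criteria.

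The 4 rows that encode no carrier held 2 of the members that were higher. Slc9a3r1 (Entrez 26941), a scaffold that tethers carriers to the actin cytoskeleton under the plasma membrane, was at 52.5 TPM in normal liver and 97.9 TPM in diabetic liver. Its log2 ratio was 0.90 (95% interval, 0.75 to 1.04). Slc7a6os, named for its place opposite to Slc7a6, was higher from 16 to 83 reads. The related scaffold Slc9a3r2 had 113 and 162 reads, and Slc4a1ap had 18 and 23 reads.

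Several members lie next to each other in the genome, with at most 2 other protein-coding genes between them in the RefSeq annotation of GRCm38.p6, and 11 such pairs were found. None of the pairs had both members called. Of all listed genes 31% were called in either direction, so few of 11 pairs would have both members called in any case. Whether neighbours differ from other members in this was not tested. Slc22a5 and Slc22a4 on chromosome 11 had log2 ratios of 2.90 and 0.85. Slc17a2 and Slc17a1 on chromosome 13 had log2 ratios of -1.16 and 0.16, and Slc6a13 and Slc6a12 on chromosome 6 had 0.62 and -0.13. Slc38a2 and Slc38a4, direct neighbours on chromosome 15, had -0.30 and 0.35.

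Partners of the carriers were looked up in lists written for this comparison, with earlier results of these data known. Of all listed genes, 22.9% were higher and 8.19% lower. Bsg, a chaperone that brings some monocarboxylate transporters to the cell surface, was at 140 TPM in normal liver and 435 TPM in diabetic liver. Which of the members depend on Bsg was not tested, and Emb, on the same list, had no value. Of 8 chaperones and scaffolds with a value, Bsg and Rdx were higher, with log2 ratios of 1.64 and 0.84. Pdzk1ip1, a small membrane protein that binds the scaffold Pdzk1, was lower from 85 to 15 reads, a log2 ratio of -2.90, while Pdzk1 itself was at 16.6 and 21.8 TPM. Of 5 sodium pump genes, 1 was higher and 0 lower. This was the beta subunit Atp1b3, at 19.4 and 38.7 TPM.

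Genes that respond to stress and nutrients and include known regulators of carrier genes were counted in the same way, beside the same shares of all listed genes. Their link to the carriers was not tested. Of 13 amino acid response genes, 3 were higher and 0 lower. Atf4, the transcription factor of that response, was at 116 and 112 TPM, and Ddit3, Ddit4 and Cebpb were higher, with log2 ratios of 1.63, 2.43 and 0.65. Of 7 genes of the Nrf2 response to oxidants, 6 were higher and 0 lower, beside 22.9% and 8.19% of all listed genes. Their median log2 ratio was 1.29, and that of all listed genes was 0.25. Nfe2l2, which encodes Nrf2 itself, was at 33.4 and 151 TPM, and the quinone reductase Nqo1 had 28 and 304 reads. Of 4 genes of the osmotic response, which is known to control Slc6a6 and Slc6a12, 0 were called in either direction, with log2 ratios from -0.35 to 0.42.

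The promoters of the members, each a window of 300 bases around a gene start in the RefSeq annotation with most of it upstream, were searched on both strands for 4 short motifs. Promoters were found for 77 of the 103 members, and for 18 of the 23 that were higher. The antioxidant response element, written TGACNNNGC, was present in 29.6% of 27 promoters of the higher members, in 19.2% of 120 promoters of all members and in 12.4% of all promoters. The 29.6% stands for 8 promoters, of Slc19a1, Slc20a1, Slc31a2, Slc35b2, Slc46a3, Slc6a13 and Slc6a9. Of these genes, Slc31a2, Slc6a13 and Slc6a9 were called higher under none of the 4 other scalings, and Slc35b2 under median-ratio scaling only. Whether these shares differ was not tested. For the E-box CACGTG the shares were 11.1%, 15.8% and 7.15%, for the amino acid response motif TGATGNAA 3.7%, 4.17% and 3.97%, and for TATAAA 3.7%, 8.33% and 13.6%. A match is a description of the letters and not a binding site. The promoters of the called members with the largest ratios that hold the antioxidant response element are printed with the match in capitals.
Slc20a1, GRCm38.p6 chr2:129206846-129207145, plus strand: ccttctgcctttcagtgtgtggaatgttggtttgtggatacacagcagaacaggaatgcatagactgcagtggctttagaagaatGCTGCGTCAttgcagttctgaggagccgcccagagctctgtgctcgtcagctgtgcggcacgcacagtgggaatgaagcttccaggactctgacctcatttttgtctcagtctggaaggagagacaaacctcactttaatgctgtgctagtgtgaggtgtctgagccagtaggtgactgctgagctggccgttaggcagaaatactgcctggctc
Slc19a1, GRCm38.p6 chr10:77032962-77033261, plus strand: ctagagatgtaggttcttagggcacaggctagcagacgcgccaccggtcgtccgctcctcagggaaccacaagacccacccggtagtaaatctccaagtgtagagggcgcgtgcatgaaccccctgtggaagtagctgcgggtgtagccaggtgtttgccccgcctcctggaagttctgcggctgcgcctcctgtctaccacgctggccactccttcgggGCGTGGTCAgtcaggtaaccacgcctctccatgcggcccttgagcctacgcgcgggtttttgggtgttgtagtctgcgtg
Each of these is 1 of 2 start regions annotated for its gene, and in both the match is on the minus strand.

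When the families left out of the set were pooled, their shares and median lay close to those of the members and of all listed genes. Single families varied more. Of 49 genes of the Slc25, Slc27, Slc30 and Slc39 families, 13 (26.5%) were higher and 3 (6.12%) lower, beside 22.9% and 8.19% of all listed genes. The median log2 ratio of the 49 was 0.25. By family it was 0.48 for Slc25, -0.04 for Slc27, -0.31 for Slc30 and 0.23 for Slc39. In Slc25, 10 of 28 were higher and 1 lower, and in Slc39, 1 of 10 was higher and 2 lower. The difference between these families and the members was not tested.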

How the data were processed

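The authors deposited 1 value per gene and library, for genes whose mean was 1 TPM or more. The values that the authors call TPM are RPM, in which they divided the clean tags matched to a RefSeq gene by the clean tags of the library and scaled them to 1000000, with 2 decimals and 0.01 where no tag was found. Before that they made cDNA from poly(A) RNA with random hexamers, cut it with DpnII and read the tags on an Illumina instrument. The submitters' processing notes name mm9, and the aligner is not given in the sources used here. Columns of values not used: 0.

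The steps between values gave the reads. Of 8513 values in the normal library 8511 were whole reads within 0.005 TPM, and of 8537 in the diabetic library 8535 were. Reads were compared by an exact binomial test (two-sided), given the clean tags, and p-values were adjusted by the Benjamini-Hochberg method for 8551 genes. The 95% intervals are Clopper-Pearson intervals and cover counting error only, because no spread between animals or libraries entered them. Tags were counted without molecular identifiers, so repeated reads of the same molecule could not be told apart. A count of 0 allows up to 3 reads, 0.292 TPM in the normal and 0.222 TPM in the diabetic library.

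The members, gene lists, tests and motifs were chosen with earlier results of these data known. The genes to name were all called members, the 15 most abundant, the most abundant of each class, those nearest to 1.5-fold, rows without a carrier and members of the lists, and the other members were added to account for each. Some members are counted but not reported by name here. The list of rows without a carrier took in Slc7a6os after its values were seen. Entrez identifiers matched RefSeq (GRCm38.p6) for 103 members, and predicted tags came from GENCODE M21. Alternatives were other scalings, pseudocounts, minimum levels, fold thresholds and assumed variation. The test was tested on simulated data. The work used matplotlib 3.10.9, numpy 2.4.6, pandas 2.3.3 and scipy 1.17.1 under Python 3.11.15.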

Additional observations from a re-analysis of the deposited data

How the results depend on the processing

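With 1 library per group no replicate could be left out and no spread between animals enters any value. No paired analysis was possible because each group has 1 library. With scaling to the total of listed genes, TMM, median-ratio and upper-quartile scaling, 14, 14, 15 and 14 members were higher and 15 were lower under each, and the median log2 ratio of the members was -0.018, -0.012, -0.0085 and -0.027. These scalings gave 14 or 15 members with a positive ratio a negative one, none of them called with the deposited values. By the fold change alone 36 were higher and 15 lower. With 20% variation between samples assumed, an alternative chosen after seeing the data, 5 members were higher (Slc16a5, Slc22a5, Slc20a1, Slc22a3 and Slc47a1) and 0 lower, where 2.21% and 0.819% of all listed genes were called. At 40% there were 1 (Slc16a5) and 0, beside 0.246% and 0.152%. The count test planned for these 2 alternatives, the edgeR exact test, was not run, and a log-ratio test with the same assumed variation took its place. A fold of at least 2 with an FDR under 0.001 gave 16 higher and 5 lower. These counts, and those with a mean of 5 TPM or more or with pseudocounts (0.1 and 1 TPM), stayed within 1.5 times the main counts. That minimum level, the pseudocounts, leaving out the rows that encode no carrier, and leaving out Slc16a5 moved the median by less than 0.05.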

Other observations

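Slc2a8 and Slc43a3, both on chromosome 2 and of different families, were listed with the same values, 178 reads in normal and 264 in diabetic liver. Among 3520 genes with at least 100 reads in normal liver, 58 shared both read counts with another gene.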
